A study of Mus musculus with 2 samples.

Results

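Marker genes of cortical interneuron subclasses, 10 in number, are described here: Pvalb, Calb1, Calb2, Lamp5, Reln, Ndnf, Adarb2, Sox6, Cnr1 and Erbb4. They were chosen by gene symbol from a list of names. That rule uses no measured value, though the list was drawn up with earlier results of these data known. All 10 were found among the 55536 genes of the gene table. The samples are total RNA libraries from left cerebral cortex. They came from 2 B6CASTF1/J mice, both male, which are first-generation hybrids of C57BL/6J and CAST/EiJ, aged 2 months, with 1 library for each animal and 300 ng of RNA at the start of each. Both animals belong to 1 group, called replicate 1 and replicate 2, with no treatment named, so no condition is compared. The libraries held 33007629 expected counts in replicate 1 and 32142918 in replicate 2. An expected count is an estimate of the number of reads of a gene that need not be whole. Levels are in TPM, the abundance of a transcript corrected for its length and scaled so that all transcripts of a library sum to 1000000.

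Inhibitory interneurons of the cortex are sorted into subclasses by where they are born and what they express. Cells from the medial ganglionic eminence of the embryo use Sox6 and include the fast-spiking cells that hold parvalbumin, while cells from the caudal ganglionic eminence use Adarb2 and include the Vip, Sncg and many Lamp5 cells. In mouse cortex several of these genes are also expressed outside interneurons. Calb1 and Lamp5 are found in upper-layer excitatory neurons, Sox6 in oligodendrocyte precursors, and Cnr1 in excitatory neurons and in the projection neurons of the striatum. A piece of cortex mixes all of these, so fewer cells of a type and less RNA per cell cannot be told apart.

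A pair of the genes, Erbb4 and Pvalb, have transcript forms that differ at a few well-defined places, and the sequences are shown because the values below turn on them. Erbb4 (chromosome 1, 68032186 to 69108059, minus strand, build mm10) has alternative exons beside its membrane-spanning stretch. The 75-base exon, exon 16 of Erbb4-202 at chr1:68290243-68290317, belongs to the form known as JM-a, which the protease Adam17 can cut. The 45-base exon, exon 16 of Erbb4-205 at chr1:68290439-68290483, takes its place in the form known as JM-b, which lacks that cleavage site. A 48-base exon, exon 26 of Erbb4-201 at chr1:68043908-68043955, belongs to the cytoplasmic form known as CYT-1, which carries a binding site for the kinase PI3K. All 3 exons are coding. The exon is in capitals, read 5′ to 3′ on the minus strand, with 15 bases of the neighbouring exons on each side in lower case.
Erbb4 75-base exon: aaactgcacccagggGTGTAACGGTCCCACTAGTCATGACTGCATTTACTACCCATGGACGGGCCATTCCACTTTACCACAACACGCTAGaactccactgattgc
Erbb4 45-base exon: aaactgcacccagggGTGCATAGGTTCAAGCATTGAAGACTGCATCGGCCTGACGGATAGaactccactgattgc
Erbb4 48-base exon: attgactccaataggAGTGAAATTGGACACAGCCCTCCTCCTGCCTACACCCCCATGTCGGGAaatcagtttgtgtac
The first pair sits between identical flanks, and each of the 3 coding forms described here holds 1 of these exons, the 75-base exon in Erbb4-201 and Erbb4-202 and the 45-base exon in Erbb4-205.

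Pvalb (chromosome 15, 78191114 to 78206400, minus strand) has a pair of start sites, each with its own first exon and with a coding length of 330 bases in both forms. Pvalb-202 starts at position 78206400 and Pvalb-201 at 78204237. The stretches shown run from 175 bases before each start to 25 bases from it, on the minus strand, from RefSeq on GRCm38.p6. Capitals mark every CpG and the TATA-like motif TATTTAA.
Pvalb-202 start, chr15:78206376-78206575: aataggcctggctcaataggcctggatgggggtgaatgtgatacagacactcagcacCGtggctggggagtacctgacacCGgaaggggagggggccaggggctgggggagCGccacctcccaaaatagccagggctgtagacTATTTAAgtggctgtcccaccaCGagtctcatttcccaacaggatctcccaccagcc
Pvalb-201 start, chr15:78204213-78204412: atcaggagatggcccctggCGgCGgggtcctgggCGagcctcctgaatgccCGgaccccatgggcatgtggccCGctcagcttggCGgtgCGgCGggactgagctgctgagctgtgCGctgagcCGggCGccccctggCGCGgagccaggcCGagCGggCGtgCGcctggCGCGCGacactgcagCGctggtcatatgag
The Pvalb-202 start had 4 CpG in these 200 bases and TATTTAA at position −32 from the start. The Pvalb-201 start had 21 CpG and no such motif. In the full 300-base windows the counts were 5 and 25 CpG, against a median of 7 over all 32851 RefSeq windows. TATTTAA on either strand was in 4.51% of those windows and TATAAA, which neither Pvalb window held, in 13.6%. The motifs were chosen after the windows were seen, and a match of letters is a description of sequence only. In all, 7 of the 10 genes had RefSeq windows, 16 windows together.

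The libraries had the markers of cortex. Slc17a7, the vesicular glutamate transporter of cortical excitatory neurons, was at 588 TPM in replicate 1 and 586 TPM in replicate 2, and the 6 excitatory markers listed summed to 2661 and 2744 TPM. Gad1, the main GABA-making enzyme of interneurons, was at 179 and 165 TPM. Genes of some other regions differed between the animals. A gene was counted as higher or lower where the 95% interval of counting error of its ratio between the animals did not hold equality, which 12.2% of the 18480 genes compared, those with 10 or more counts on average, did upwards and 10.6% downwards. All 10 striatal markers listed were higher in replicate 1 beyond counting error, with a summed level of 324 TPM there and 176 TPM in replicate 2, and none was at 0. So were all 5 markers of claustrum and piriform cortex (233 and 208 TPM summed). Of the 6 cerebellar genes listed 4 were detected, Calb1 and Pvalb among them, with Neurod1 at 7.81 and 7.39 TPM and Car8 at 2.94 and 3 TPM. Pcp2 (0.12 and 0.12 TPM) and Gabra6 (0.16 and 0.02 TPM) were near 0.

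All 10 genes were detected at 1 TPM or more in both libraries, and their levels spanned a wide range. The highest was Lamp5 at 122 ± 0.658 TPM (mean ± SD, n = 2 animals, as in all values written this way), above 94.7% of the 14989 detected genes. Calb1 (65.2 ± 0.205), Cnr1 (57.9 ± 5.71), Pvalb (41.9 ± 1.41), Reln (35.7 ± 5.40), Erbb4 (25.4 ± 0.0778), Sox6 (14.5 ± 0.0495), Adarb2 (9.86 ± 0.368) and Calb2 (9.76 ± 1.08) followed. The lowest was Ndnf at 5.59 ± 0.0212 TPM, above 28.4% of detected genes. Together they held 388 ± 1.24 TPM.

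Neighbours in this order were called apart where their libraries did not overlap and the gap between their means exceeded the sum of their SDs. Of 9 pairs of neighbours, 7 were apart. Pvalb and Reln were not, with a gap of 6.20 TPM against summed SDs of 6.80, and neither were Adarb2 and Calb2, with a gap of 0.105 TPM against 1.45. A second quantification of the same libraries, made directly from the reads, gave 5 pairs apart of 9. Calb1 had the fifth mean there and was not apart from Reln, its neighbour above, with a gap of 2.14 TPM against summed SDs of 16.3. Lamp5 stayed highest and Ndnf lowest in both.

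**Figure D1:**
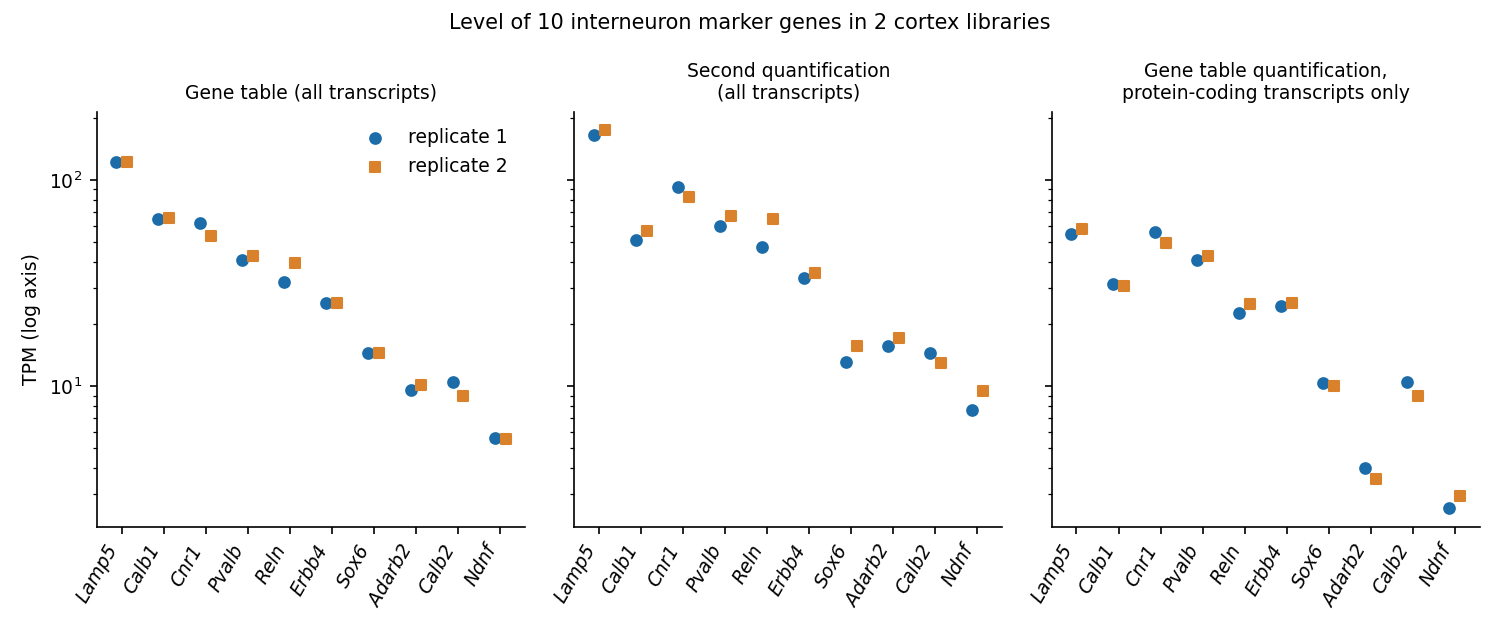
Level of each gene in TPM on a log axis, with circles for replicate 1 and squares for replicate 2, in the gene table, in the second quantification, and in the gene table's quantification with protein-coding transcripts only. Lamp5 is at 122 TPM in the first panel and 56.5 TPM in the third, beside Cnr1 at 57.9 and 52.7 TPM, while Ndnf is lowest in all 3 panels.

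Part of the level of most of these genes was carried by transcripts of classes other than protein-coding, and this share differed widely between the genes. The 10 genes have 59 annotated transcripts, of which 27 are protein-coding. Protein-coding forms held 100% of the TPM of Pvalb and of Calb2, 98.1 ± 1.40% of Erbb4 and 91.1 ± 1.57% of Cnr1. They held 47.5 ± 0.822% of Calb1, 46.1 ± 1.52% of Lamp5, 49.3 ± 4.99% of Ndnf and 38.6 ± 4.95% of Adarb2. In the second quantification the coding share was higher for Calb1, at 84.0 ± 5.49%, and for Lamp5, at 80.7 ± 0.349%. It was 52.4 ± 4.02% for Ndnf, 32.8 ± 5.86% for Adarb2 and 85.8 ± 0.308% for Cnr1. Coding forms of Sox6 held 70.3 ± 1.57% in the gene table's quantification and 58.6 ± 6.60% in the second. For Reln these shares were 67.2 ± 5.65% and 62.1 ± 8.61%. With coding transcripts alone Lamp5 was at 55.0 TPM in replicate 1 and 58.1 in replicate 2, and Cnr1 at 55.8 and 49.7, so in the gene table's quantification their libraries overlapped and the pair at the top was no longer apart. In the second quantification coding transcripts alone kept this pair apart, with means of 137 TPM for Lamp5 and 75.1 TPM for Cnr1.

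**Figure D2:**
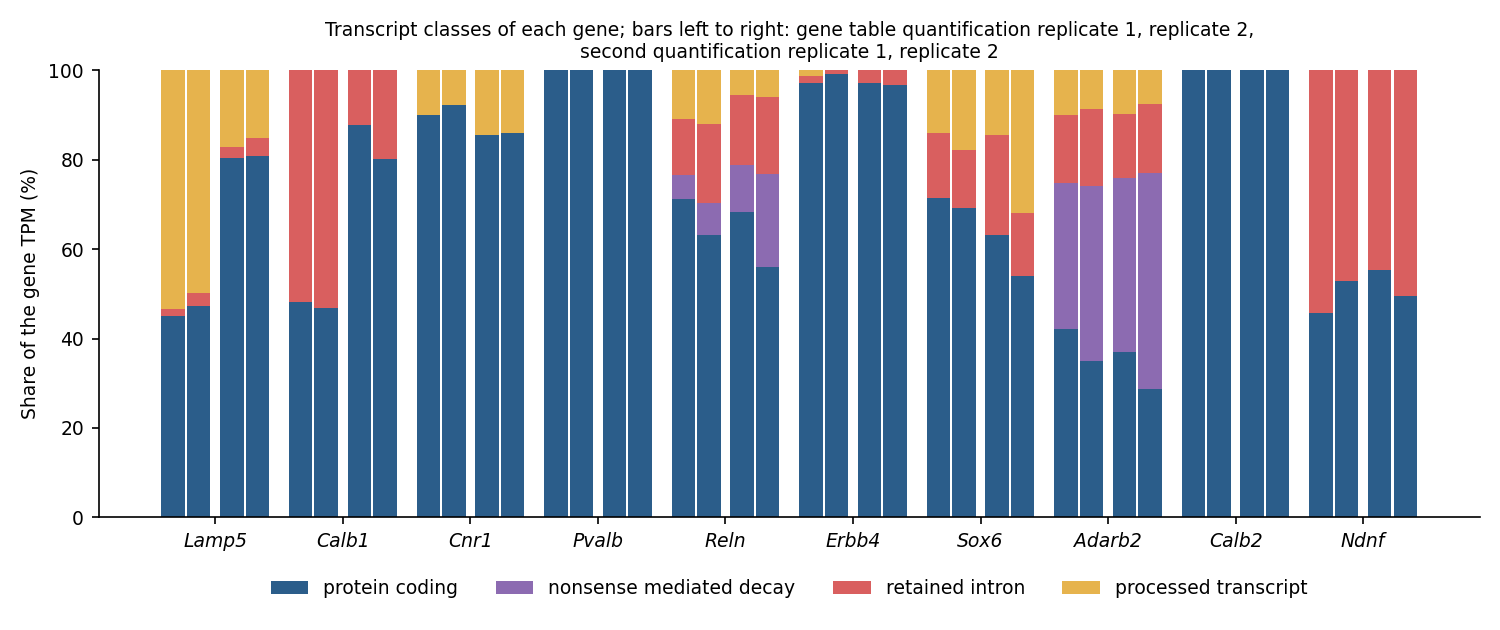
Share of each gene's TPM by annotated transcript class, in percent, with 4 bars for each gene: replicates 1 and 2 in the gene table's quantification, then replicates 1 and 2 in the second. Pvalb and Calb2 are protein-coding throughout, while the non-coding share of Lamp5 and Calb1 is larger in the left pair of bars than in the right pair.

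The calcium-binding proteins Pvalb, Calb1 and Calb2 buffer calcium inside the cell and mark largely separate interneuron groups. Pvalb, parvalbumin (ENSMUSG00000005716.16), had 40.9 TPM in replicate 1 and 42.9 TPM in replicate 2, from 782 and 790 expected counts. The libraries were nearly level in the total but not in the form. Pvalb-201 held 97.4% of the TPM in replicate 1 and 30.2% in replicate 2, and Pvalb-202 held 2.61% and 69.8%. The gene table's quantification put 762 and 243 reads on Pvalb-201, with a posterior SD of 127 and 165 reads. A posterior SD is the uncertainty of an estimate that shares reads between similar transcripts, and only 88 bases of Pvalb-201 and 64 bases of Pvalb-202 lie in no other form. In the second quantification Pvalb-201 held 97.1% in replicate 1 and 59.9% in replicate 2, so the direction was shared and the size was not. By posterior mean TPM, another estimate in the gene table's quantification, Pvalb-201 held 78.0% in replicate 1 and 39.4% in replicate 2.

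Calb1, calbindin (ENSMUSG00000028222.2, chromosome 4, 15881264 to 15908064, plus strand), had 65.0 and 65.3 TPM in replicates 1 and 2, from 3251 and 3148 counts. The coding form Calb1-201, of 4222 bases, held 48.1% and 46.9% of the TPM. Calb1-202, a retained-intron form of 701 bases, held 48.9% and 49.9% from 417 and 420 counts. There was less of it in the second quantification, where Calb1-202 held 5.44% and 10.2% and Calb1-201 held 87.8% and 80.1%. Another retained-intron form, Calb1-203, held 2.98% and 3.15%, and 6.73% and 9.72% in the second quantification. The animals resembled each other within each quantification, and the quantifications differed by far more than the animals did.

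Calb2, calretinin, a marker of many Vip interneurons (ENSMUSG00000003657.9, chromosome 8, 110137502 to 110168210, minus strand), had 10.5 TPM in replicate 1 and 8.99 TPM in replicate 2. It came from 305 and 256 counts, the fewest of the 10 genes. All of it was assigned to Calb2-201, in both quantifications. Calb1 exceeded Calb2 by 6.72 ± 0.767-fold in TPM within a library and by 3.94 ± 0.598-fold in the second quantification. Calb2 was at 0.233 ± 0.0336 of Pvalb, and at 0.219 ± 0.0336 in the second quantification. Calb1 over Pvalb was 1.55 ± 0.0473 in the gene table and 0.852 ± 0.00158 in the second quantification, so over all transcripts the order of Calb1 and Pvalb differed between the quantifications. With coding transcripts only Calb1 was below Pvalb in both, at 0.739 ± 0.0352 of its level in the gene table's quantification and 0.715 ± 0.0481 in the second. Vip, the peptide of the Vip subclass, was at 30.1 and 30.6 TPM, which is 3.13 ± 0.390 times the Calb2 level.

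Of the 10 calcium-binding genes listed, 7 were detected, and the hippocalcin gene Hpca was highest at 335 and 287 TPM. S100b, made largely by astrocytes, was at 62.8 and 61.0 TPM. Necab2 differed most, at 36.4 TPM in replicate 1 and 28.0 TPM in replicate 2. The gut and kidney gene S100g had no count in either library, and at this depth such a 0 allows up to 3 counts.

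Lamp5, Reln and Ndnf mark the neurogliaform and other cells of the Lamp5 subclass. Lamp5, a brain relative of the lysosomal membrane proteins (ENSMUSG00000027270.14, chromosome 2, 136052239 to 136069917, plus strand), had 122 TPM in replicate 1 and 123 TPM in replicate 2, from 4055 and 4096 counts. The coding Lamp5-201 held 44.7% and 47.2% of the TPM and the non-coding Lamp5-202 held 52.1% and 49.6%. The coding form held 80.4% and 80.9% in the second quantification, and Lamp5-202 held 17.1% and 15.1%. Of the 1384 bases of Lamp5-202, 1320 lie inside exons of Lamp5-201 and none is unique to it. The family members Lamp1 (123 and 113 TPM) and Lamp2 (33.8 and 33.3 TPM) are found in most cells, Cd68 (6.44 and 5.23 TPM) marks microglia, and Lamp3 was at 0.03 and 0.07 TPM. Over all transcripts, Lamp5 was thus at the level of Lamp1 in this tissue.

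Reln encodes reelin, a large secreted protein that guides neuron placement in development and acts at synapses in the adult (ENSMUSG00000042453.14, chromosome 5, 21884454 to 22344702, minus strand). It had 31.9 TPM in replicate 1 and 39.6 TPM in replicate 2, from 6032 and 6623 counts. Its main transcript has 11699 bases, of which 10383 are coding, the longest coding sequence of the 10 genes. The coding Reln-207 held 71.2% and 63.2% of the TPM. Restricted to coding forms the levels were 22.7 and 25 TPM. Reln-212, a short form annotated as a target of nonsense-mediated decay, held 5.35% and 7.13%, and 10.7% and 20.9% in the second quantification. Reln-205 held 4.48% and 6.72%, and 0% in the second quantification, and Reln-213 held 2.79% and 5.53%, and 7.32% and 6.55% there. Each of these short forms rested on few reads, between 5 and 45.02 in a library.

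Ndnf, a secreted protein that marks neurogliaform cells of layer 1 (ENSMUSG00000049001.5, chromosome 6, 65671590 to 65712326, plus strand), had 5.60 TPM in replicate 1 and 5.57 TPM in replicate 2, from 587 and 654 counts. The coding Ndnf-201 carried 559 and 630 of these counts over 10101 bases. The retained-intron form Ndnf-202 carried 28.3 and 24.0 counts over 527 bases, which came to 54.2% and 47.1% of the TPM. Ndnf-202 held 44.7% and 50.4% in the second quantification. The level of Ndnf per length therefore rested about equally on a long form with many reads and a short form with few. Lamp5 exceeded Ndnf by 21.9 ± 0.201-fold, and by 20.04 ± 2.42-fold in the second quantification. Reln exceeded Ndnf by 6.40 ± 0.990-fold, and by 6.50 ± 0.452-fold there.

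Reelin signals through the receptors Vldlr and Lrp8 to the adaptor Dab1. All 9 genes of this pathway list were detected. Lrp8 was at 38.3 TPM in replicate 1 and 41.2 TPM in replicate 2, Vldlr at 24.0 and 24.7, and Dab1 at 57.6 and 57.7. Apoe, a lipid carrier that binds the same receptors, was highest at 853 and 806 TPM, followed by Dab2ip at 62.8 and 63.5 and Crk at 60.4 and 58.7. Reln was the only one of the 9 that was lower in replicate 1 beyond counting error (background 10.6%). Apoe and Fyn were higher there (background 12.2%), with log2 ratios of 0.07 (0.04 to 0.10) and 0.08 (0.01 to 0.15). Cajal-Retzius cells, the other reelin source of the cortical surface, were checked by their markers. Trp73 was at 0.17 and 0.18 TPM, Lhx1 at 0 and 0.02, Lhx5 at 0.07 and 0.02, and Ebf3 at 0.28 and 0.09, so these defining genes were at or near 0.

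Adarb2 and Sox6 act in the nucleus and separate the caudal from the medial eminence lineage. Adarb2, a relative of the RNA-editing enzymes with no known editing activity of its own (ENSMUSG00000052551.16, chromosome 13, 8202866 to 8768747, plus strand), had 9.60 TPM in replicate 1 and 10.1 TPM in replicate 2, from 989 and 1029 counts. Its TPM lay mainly on 4 forms. The coding Adarb2-201 held 35.9% and 35.1%, and Adarb2-203, annotated as a decay target with the same coding length of 2235 bases, held 32.6% and 38.9%. The retained-intron Adarb2-206 held 15.3% and 17.3% and Adarb2-204 held 10% and 8.70%. In the second quantification Adarb2-203 led with 38.8% and 48.3%, against 29.5% and 28.7% for Adarb2-201. The editing enzymes Adar (61.5 and 61.7 TPM) and Adarb1 (62.3 and 61.4 TPM) were level with each other in the gene table but not in the second quantification, where they were at 135 and 126, and at 88.8 and 92.3 TPM. Adarb2 was at 0.159 ± 0.00744 of Adarb1.

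Sox6, a transcription factor of the SoxD family needed for the placement and maturation of Sst and Pvalb cells (ENSMUSG00000051910.13, chromosome 7, 115470872 to 116038796, minus strand), had 14.5 TPM in replicate 1 and 14.4 TPM in replicate 2, from 1005 and 1040 counts. It has 16 annotated forms, the most of the 10 genes. Sox6-210, the leading form in both quantifications, held 28.9% and 29.8%, and 43.4% and 36.1% in the second. The short coding fragments Sox6-211 (22.1% and 16.5%) and Sox6-207 (15.2% and 17.1%) rested on 24.3 and 17.8 counts and on 11.1 and 12.2 counts, and in the second quantification they held at most 2.38%. Sox6-208 held 14.1% and 17.9%, and 14.5% and 16.7% in the second quantification. Sox6-209 held 10.3% and 9.13%, and 17.8% and 7.58% there. Sox6-203 (12.3% and 8.12%), Sox6-202 (4.86% and 6.78%) and Sox6-215 (0% and 15.2%) reached their shares only in the second quantification. Its relatives Sox5 (29.2 and 27.2 TPM) and Sox13 (4.47 and 3.94 TPM) lay above and below it.

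Adarb2 was at 0.681 ± 0.0277 of Sox6 in the gene table but at 1.14 ± 0.0644 in the second quantification, so which lineage gene was higher depended on the quantification. With coding transcripts alone Adarb2 was lower in both, at 0.372 ± 0.0250 of Sox6 in the gene table's quantification and 0.640 ± 0.0785 in the second. In the gene table's quantification that sum counts the low-count fragments Sox6-211 (3.2 and 2.39 TPM) and Sox6-207 (2.2 and 2.47 TPM). It leaves out the decay-target form Adarb2-203 (3.13 and 3.94 TPM, and 6.09 and 8.29 in the second quantification). The coding sum therefore does not settle the order of Adarb2 and Sox6. Of the 10 genes listed for the medial eminence 9 were detected, with Sst (203 and 191 TPM), the channel gene Kcnc1 (64.1 and 61.9) and Satb1 (59.4 and 58.5) highest. Of the 9 with the counts to be compared, 2 were higher in replicate 1. Of the 10 for the caudal eminence 9 were detected, with Cnr1, Vip and Nr2f2 (17.9 and 17.2 TPM) highest, and 2 were higher in replicate 1. None of either list was lower beyond counting error. The backgrounds were 12.2% higher and 10.6% lower. Markers of oligodendrocyte precursors, which also express Sox6, summed to 101 TPM in replicate 1 and 95.7 TPM in replicate 2 over 7 genes with Sox6 included. Pdgfra, which defines those cells, was at 16.0 and 16.8 TPM. The part of these cells in the Sox6 level was not tested.

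Cnr1 and Erbb4 are receptors at the cell surface. Cnr1, the cannabinoid receptor found on the terminals of Cck basket cells (ENSMUSG00000044288.6, chromosome 4, 33924593 to 33948831, plus strand), had 61.9 TPM in replicate 1 and 53.9 TPM in replicate 2, from 7011 and 6111 counts, the highest count of the 10 genes in replicate 1. Cnr1-201 held 78.7% in both libraries, Cnr1-202, with another first exon and the same coding length of 1419 bases, held 11.4% and 13.6%, and the non-coding Cnr1-203 held 9.96% and 7.74%. In the second quantification Cnr1-201 held 65.4% and 60.2%, Cnr1-202 held 20.1% and 25.8%, and Cnr1-203 held 14.4% and 14.0%. Cnr1 was at 0.170 ± 0.0151 of Cck, the peptide of the same basket cells and of many excitatory neurons, and at 0.117 ± 0.0165 in the second quantification.

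The endocannabinoid that Cnr1 answers to is made by Dagla and broken down by Mgll. Dagla was at 40.2 TPM in replicate 1 and 42.1 TPM in replicate 2, Mgll at 81.6 and 83.7, and the other lipase Abhd12 at 144 and 135. Of the 11 genes of this list 9 were detected and 9 had the counts to be compared between animals. In replicate 1, 2 were higher (Abhd12 and Cnr1, background 12.2%) and 1 was lower (background 10.6%). The lower one was Faah, the hydrolase of anandamide, with 39.4 TPM in replicate 1 and 45.6 TPM in replicate 2. Cnr2, the receptor typical of immune cells, was at 0.04 and 0.05 TPM.

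Erbb4, the neuregulin receptor of cortical interneurons (ENSMUSG00000062209.15), had 25.4 TPM in replicate 1 and 25.5 TPM in replicate 2, from 4043 and 3949 counts. Erbb4-202, which has the 75-base exon, held 52.3% and 50.6% of the TPM, and Erbb4-205, which has the 45-base exon, held 43.5% and 46.5%. Among these 3 coding forms, without the non-coding Erbb4-204 (0.33 TPM in replicate 1 and 0 in replicate 2), the share with the 45-base exon shown above was 44.8% in replicate 1 and 46.9% in replicate 2 (45.8 ± 1.49%). The second quantification gave 41.4 ± 1.57%. By these transcript estimates both animals held forms with the JM-a and with the JM-b exon, those with the 75-base exon somewhat higher in TPM. Reads over the exons themselves were not counted. Erbb4-205 is annotated as incomplete at its 3′ end and is 2196 bases long, against 12037 bases for Erbb4-202. Of the bases of Erbb4-205, 2151 lie inside exons of Erbb4-201 and none is unique to it. Erbb4-205 carried 503 and 530 of the counts, with a posterior SD of 20.8 and 21.6 reads. By counts its share was 12.9 ± 0.691%, so the size of the share depended on the length of the form. The 48-base exon was rare among the forms with the 75-base exon. It is annotated in Erbb4-201 only, which made up 2.43% and 3.88% of their TPM, and 4.44% and 4.27% in the second quantification. Erbb4-205 ends at position 68250655, before reaching that exon, so whether transcripts with the 45-base exon hold it was not measured. The posterior SD of Erbb4-201 was 49.8 reads on 84.2 in replicate 1 and 59.0 on 130 in replicate 2.

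**Figure D3:**
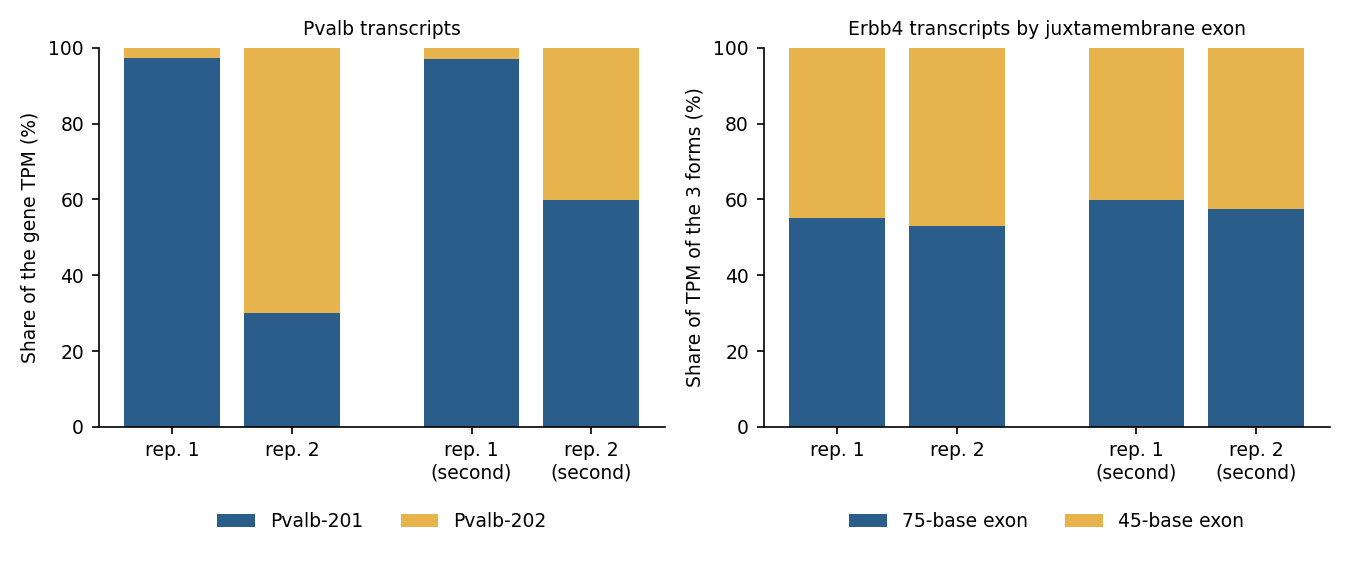
Share of TPM in percent, by library and quantification, of the Pvalb transcripts (left) and of the coding Erbb4 forms with either juxtamembrane exon (right). Pvalb-201 has 97.4% in replicate 1 and 30.2% in replicate 2 in the gene table's quantification, whereas the Erbb4 form with the 45-base exon has 44.8% and 46.9%.

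Erbb4 binds neuregulins, and Nrg3 was its most abundant ligand gene at 31.3 TPM in replicate 1 and 32.4 TPM in replicate 2. Nrg1 was at 10.9 and 11.3 TPM, Nrg2 at 5.05 and 4.67, Hbegf at 5.02 and 5.14, and Nrg4 at 0.24 and 0.61. Among the related receptors, Erbb3 was at 2.65 and 2.21 TPM and Erbb2 at 1.08 and 0.84, so Erbb4 was far above both. The proteases that process the receptor and its ligands were at 7 and 9.08 TPM for Adam17 and at 40.9 and 35.1 TPM for Bace1. Of 12 genes in this list 9 were detected and 10 had the counts to be compared between animals. In replicate 1, 2 were higher (Erbb3 and Bace1, background 12.2%) and 1 was lower (Nrg3, background 10.6%). Erbb4 was at 0.148 ± 0.00907 of Gad1, and at 0.185 ± 0.0171 in the second quantification.

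The animals were compared by the log2 ratio of replicate 1 over replicate 2, from TMM-normalised CPM, in which each library's counts are brought to a common total, with a 95% interval of counting error. A single animal stands on each side, so the ratio cannot be checked against replicates and carries no p-value. Of the 10 genes 3 differed beyond counting error, against 22.8% of the 18480 genes compared, and 1 was higher in replicate 1 (background 12.2%) and 2 were lower (background 10.6%). None differed 2-fold, against 1.79% of those genes. At a mean count of 100 or more, which all 10 genes reached, 27.8% of genes differed beyond counting error and 0.226% differed 2-fold. With 3 of 10, the members were near the background share beyond counting error. The median ratio of the 10 was −0.04, against 0.00297 for the genes compared, and over the 12817 genes at a mean count of 100 or more the median size of the ratio was 0.0796 and the 95th percentile 0.334.

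Cnr1 was higher in replicate 1, with a log2 ratio of 0.17 (0.12 to 0.22), but lower, at −0.15, with spike-in scaling, which moved the median of the genes compared to −0.32. The directions given here are therefore relative to the bulk of the genes. All 10 striatal markers listed were also higher in replicate 1, against a background of 12.2%. Drd2 was at 6.45 TPM in replicate 1 and 1.53 TPM in replicate 2, and Ppp1r1b at 107 and 64.6 TPM. The summed striatal level was 324 TPM in replicate 1 and 176 TPM in replicate 2, and its part in the Cnr1 ratio was not tested. Of the 10 general GABA neuron genes 5 were higher (background 12.2%) and none was lower (background 10.6%). Among the 5 were Gad2 (53.8 and 45.7 TPM) and Slc32a1 (45.2 and 36.9 TPM), the GABA vesicle transporter. Dlx6 differed most in that list, at 7.10 and 4.02 TPM. The part of the striatal difference in these ratios was not tested either.

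Reln was lower in replicate 1, with a log2 ratio of −0.16 (−0.21 to −0.11), and so was Ndnf, at −0.18 (−0.35 to −0.02). Ndnf stayed within counting error in the second quantification (−0.10, −0.25 to 0.05). In the gene table's TPM over all transcripts its libraries were level, at 5.60 and 5.57. Its TPM was lower in replicate 1 in the second quantification (7.64 and 9.50). The same held in the gene table's quantification with coding transcripts only (2.57 and 2.95). Reln kept its side in the second quantification, at −0.13 (−0.18 to −0.08). Of the 8 upper-layer markers 3 were lower in replicate 1 (background 10.6%) and 1 was higher (background 12.2%). Rasgrf2 was at 89.8 TPM in replicate 1 and 104 TPM in replicate 2, and the list summed to 473 and 496 TPM. The part of this difference in the Reln and Ndnf ratios was not tested. The 7 Cajal-Retzius genes, which include Reln, Ndnf and Calb2, summed to 48.6 and 54.4 TPM. With Trp73, Lhx1, Lhx5 and Ebf3 at or near 0, this sum largely repeats the levels of Reln, Calb2 and Ndnf.

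The other genes stayed within counting error. Calb2 had the widest interval, 0.22 (−0.02 to 0.47), on the fewest counts. Among markers of other regions that also use Calb2, 7 thalamic genes summed to 76.5 TPM in replicate 1 and 72.1 TPM in replicate 2. Of these, 2 were higher (background 12.2%) and 1 was lower (background 10.6%). The 7 olfactory bulb genes summed to 24.7 and 20.2 TPM. Of these, 5 had the counts to be compared between animals, with 2 higher and none lower. Both sets include Calb2, and their part in its level was not tested. The ratio was −0.08 for Adarb2, −0.08 for Sox6, −0.04 for Pvalb, −0.04 for Lamp5, 0.02 for Calb1 and 0.01 for Erbb4. Lamp5, Calb1 and Erbb4, which had more counts, had the narrower intervals, for Lamp5 −0.11 to 0.02 on the log2 scale.

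**Figure D4:**
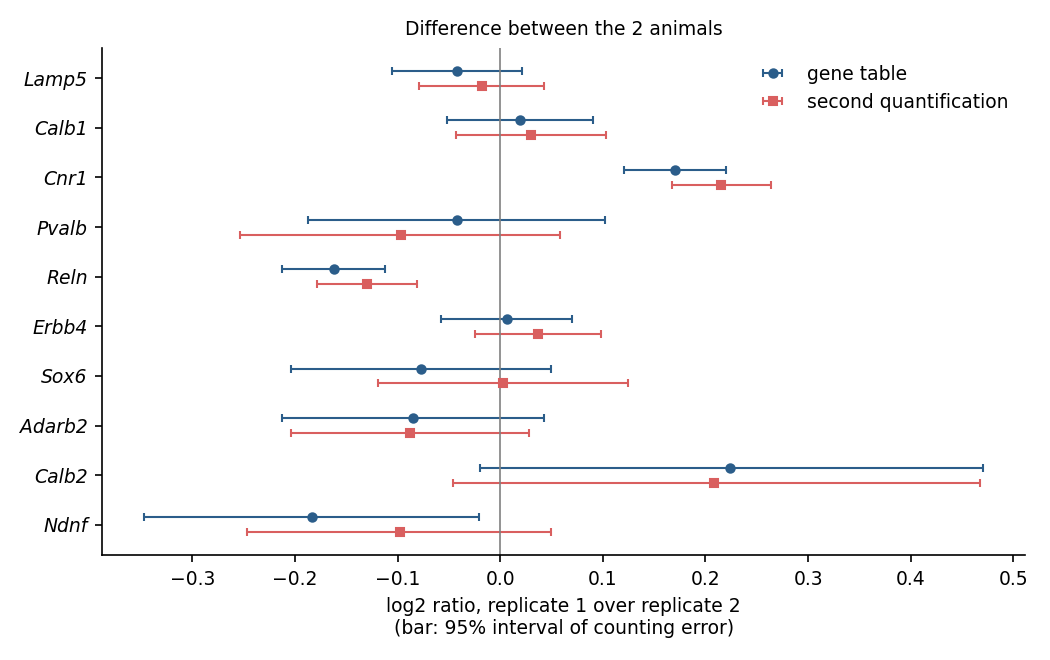
Log2 ratio of replicate 1 over replicate 2 for each gene, with 95% intervals of counting error, from the gene table (circles) and the second quantification (squares). Cnr1 lies right of 0 and Reln left of 0 in both, at 0.17 and −0.16 in the gene table, and the interval of Calb2 is the widest.

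The lists of subclass genes were counted in the same way, against backgrounds of 12.2% higher and 10.6% lower over all genes compared. At a mean count of 100 or more these backgrounds were 16% and 11.8%. Of the 10 genes of the Pvalb list 4 were higher in replicate 1 (Unc5b, Kcns3, Pthlh and Tac1) and none was lower, while Pvalb itself did not pass. Tac1 (23.4 and 8.69 TPM) stands in the striatal list too. Of the 10 Lamp5 subclass genes 9 had the counts to be compared. Among them 3 were higher in replicate 1 (Lhx6, Npy and Sv2c) and 2 were lower (Reln and Ndnf). Npy was at 94.5 and 83.8 TPM and Id2 at 76.8 and 73.6. Of the 10 Vip subclass genes 4 were higher, among them Penk (80.2 and 43.9 TPM), also a striatal gene, and Vip was not among them. Of the 8 Sncg subclass genes 2 were higher, Cxcl14 (68.4 and 59.5 TPM) and Cnr1. Of the 10 Sst subclass genes 5 were higher, with Sst and Tac1 among them. The lists share genes with each other, so their counts are not independent.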

How the data were processed

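Per the file headers, the gene table and the first transcript table of each library were deposited with expected counts, TPM and, for transcripts, the percent of the gene's TPM. They come from transcriptome alignments (mm10, GENCODE M21). The posterior SD of a count, a score with no fixed range, was computed and deposited by the authors, per the file headers. The deposited second transcript table, with estimated counts and TPM, was made directly from reads with the same annotation. The programs are not named in the labels or headers. Effects of CAST/EiJ mismatches to the reference were not measured.

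Rows of the gene table comprise 55536 genes, 96 spike-ins and 26249 others without a gene name. The others held 1.78e-05% and 2.48e-05% of the counts in replicates 1 and 2 and, like the spike-ins, stayed out of library sizes and comparisons. The second quantification held 33424292 and 33464140 counts. Each posterior SD of the 10 genes' counts was 0, which means no reads shared with other genes, and Gm10475, the only gene over an exon of theirs (Reln), had 1 count in each library.

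Expected counts were rounded for the ratio between animals (edgeR 4.0.16, prior count 2, mean count of at least 10, R 4.3.3), which was tested on simulated data. The 95% intervals are exact Clopper-Pearson intervals and cover counting error only, since PCR copies of a molecule cannot be recognised. The labels name separate animals. No likeness of patterns was computed, as 2 libraries give none. Transcripts were named at 5% or more of the gene's TPM in the mean of either quantification. Of the 15 pathway and 9 marker lists, the 3 highest and the most different genes, or all of lists up to 5 genes, could be named. Some are only summarised, and partners named beyond this were chosen after their values were seen. The members and lists were chosen with earlier results of these data known.

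The alternatives were the second quantification, the posterior mean TPM, TPM rescaled to protein-coding genes, size factors of DESeq2 1.42.0, scaling by spike-ins, pseudocounts of 1 and 0.1 on TPM, a prior count of 0.5, other count minimums, and each animal left out. Summing protein-coding transcripts only was added after seeing the data. Python 3.11.15, pandas 2.3.3 and matplotlib 3.10.9 were used.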

Additional observations from a re-analysis of the deposited data

How the results depend on the processing

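The summed level of the 10 genes, 388 TPM, was 518 in the second quantification, 382 with the posterior mean TPM, 797 and 645 with TPM rescaled to protein-coding genes in the gene table and in the second quantification, and 257 and 420 with protein-coding transcripts only, a choice made after seeing the data. Adarb2 over Sox6 turned round to 1.14 in the second quantification, and was 0.372 and 0.640 with coding transcripts only. Calb1 over Calb2 came to 3.94 in the second quantification, and to 3.19 and 3.29 with coding transcripts only. Lamp5 over Pvalb, 2.92 in the gene table, came to 2.69, 1.35 and 2.17 in the same order. Calb1 over Pvalb turned round in all 3, to 0.852, 0.739 and 0.715. The Erbb4-205 share, 44.98% in the gene table's quantification, was 40.1% in the second quantification and 12.9% by expected counts. Spike-in scaling put 9 of the 10 genes lower in replicate 1 instead of 3 beyond counting error, with 65.9% of the genes compared lower and a shift of −0.32 in their median. Under it Calb1 (−0.30), Calb2 (−0.10), Cnr1 (−0.15) and Erbb4 (−0.32) changed sign. On log2(TPM + 1) and with a pseudocount of 0.1, Ndnf changed sign, at 0.0066 and 0.0076, and so did Sox6 (0.0065 and 0.0069), Calb1 (−0.0063 and −0.0064) and Erbb4 (−0.0060 and −0.0062), these 3 within counting error in the gene table. Sox6 was at 0.0029 in the second quantification. The cause of these shifts was not tested. Without each animal in turn the sum ran from 387 to 389 TPM, Adarb2 over Sox6 from 0.662 to 0.701, Calb1 over Calb2 from 6.18 to 7.27, Lamp5 over Pvalb from 2.86 to 2.98 and the Erbb4-205 share from 43.5% to 46.5%. Leaving out an animal leaves no ratio between animals. No paired analysis was possible because there is 1 group. Depth limits Calb2 most, with 305 and 256 counts.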
